A study of Mus musculus with 6 samples.

Results

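A set of 9 genes that build, load and switch on MHC class II molecules was followed in whole mouse skin: the chain genes H2-Aa, H2-Ab1 and H2-Eb1, the peptide-loading genes H2-DMa, H2-DMb1, H2-Oa and H2-Ob, the invariant chain gene Cd74, and Ciita, the switch that turns the others on. They were chosen by gene symbol, and all 9 are among the 23951 genes of the table. The 6 samples are C57Bl/6 littermates aged 6 to 7 months, 3 labelled JunB +/+ (controls) and 3 labelled JunB dep, called JunBΔep here. In JunBΔep mice the AP-1 transcription factor gene Junb is deleted in cells that express keratin 5, the basal keratinocytes of the epidermis, so immune cells of the skin keep the gene. Poly(A) RNA of the skin was sequenced, and expression was given as FPKM (fragments scaled to transcript length and to the mapped fragments of the library). The libraries of a group are named by the replicate number 0, 1 or 2 of the sample labels. The comparison asked which class II genes differ between skin of JunBΔep mice and control skin. The paper states that the JunBΔep skin sequenced was lesional, so deletion of the gene and lesion cannot be separated here.

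MHC class II molecules show peptides from taken-up proteins to CD4 T cells. An alpha and a beta chain pair in the endoplasmic reticulum with the invariant chain, which blocks the peptide groove and guides the complex to endosomes, where H2-DM exchanges the remaining fragment for a peptide and H2-O restrains H2-DM. In resting skin the main class II cells are Langerhans cells of the epidermis and dendritic cells and macrophages of the dermis, while keratinocytes make class II molecules only after signals such as interferon gamma. The mouse b haplotype, carried by C57BL/6, lacks a working H2-Ea gene, so its H2-Eb1 chain has no partner for an I-E molecule.

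Some libraries stand apart and are described first. Junb was at 59.3, 72.4 and 56.9 FPKM in control mice 0, 1 and 2 and at 130, 42.8 and 28.05 FPKM in mice 0, 1 and 2 labelled JunBΔep, so mouse 0 goes against its label, although skin also holds cells that keep Junb. Of 5 neutrophil markers, the same library was the highest in S100a8, Csf3r and Cxcr2, at 24460, 44.3 and 22.3 FPKM against at most 744, 3.70 and 2.45 FPKM across the controls. S100a8, which stressed keratinocytes also make, gave nearly all of the summed level in that library. It was at 13.0 and 65.6 FPKM in mice 1 and 2 labelled JunBΔep. Its partner S100a9 is listed at 0 in mouse 0 labelled JunBΔep, and Mpo was at 0.0615 FPKM there against 32.0 FPKM in control mouse 0. Control mouse 0 alone held liver transcripts (1239 FPKM summed over 4 genes, at most 20.1 FPKM elsewhere). Skeletal muscle markers separated the groups in 5 of 5 genes, with a summed level of 12790 to 16580 FPKM across the controls and 1184 to 2800 FPKM in the libraries labelled JunBΔep. The part of these RNAs in the class II values was not tested. The number of reads per library is unknown, so no counting interval can be given. As markers of skin, the keratin Krt5 was at 1588 to 3725 FPKM and the collagen Col1a1 at 73.9 to 505 FPKM over the 6 mice. Krt14 is listed at 0 in mouse 0 labelled JunBΔep and was at 837 to 1304 FPKM in the other mice. Whether the 0 listed for S100a9 and for Krt14 is absence of the RNA was not tested.

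All 9 class II genes had a lower mean in the skin labelled JunBΔep, and 46.6% of all genes tested had a negative log2 fold change. None of the 9 passed the test across all genes. That fit missed changes of 1 on the log2 scale in simulated data, so a missing call does not show an unchanged gene. The chain genes and Cd74 stood at 37.9% to 44.5% of the control mean FPKM, H2-Oa at 42.5%, H2-DMa and H2-DMb1 at 50.7% and 59.3%, H2-Ob at 58.7% and Ciita at 60.5%. In limma's test on log2(FPKM + 0.5) over 17021 genes, 0 of the 9 had a Benjamini-Hochberg adjusted p below 0.05 (range 0.330 to 0.722), where 1.38% of all genes tested were called in the lower direction. All 235 genes called in this fit were lower, so it called no gene as higher. At an unadjusted p below 0.05, 6 of the 9 were lower, against 6.13% of all genes tested. In 5 of the 9, every mouse labelled JunBΔep was below every control, a pattern shared by 9.16% of all genes tested. A log2 fold change of -1 or lower was seen in 5 of the 9 and in 6.07% of all genes tested. The median log2 fold change of the 9 was -1.05, beside 0.03 for all genes tested.

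**Figure D1:**
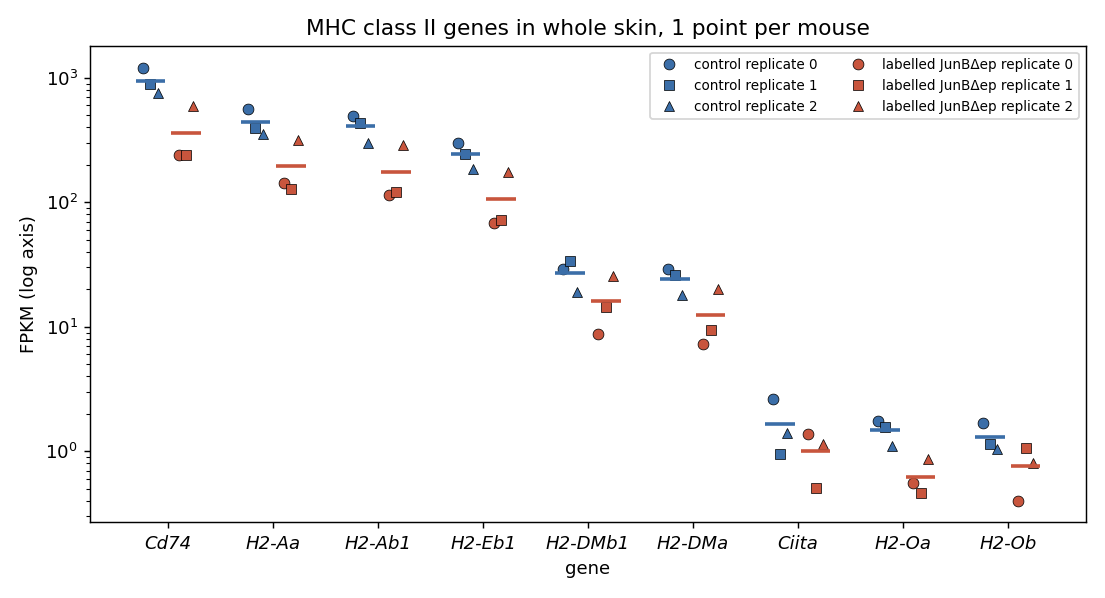
FPKM on a log axis of the 9 class II genes in each of 6 mice, in order of control mean, with horizontal bars at the group means (n = 3 each). Control mouse 0 is highest of the controls in 8 of 9 genes, and mouse 2 labelled JunBΔep is highest of its group in 7 of 9.

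Of the genes, 7 lie together in the class II region of chromosome 17, from 34229285 to 34453144 on mm9, a span of 223860 bases, in the order H2-Oa, H2-DMa, H2-DMb1, H2-Ob, H2-Ab1, H2-Aa and H2-Eb1. Such genes share a promoter layout known as the X and Y boxes, bound by the RFX complex and NF-Y, on which Ciita is assembled. RefSeq promoter windows (250 bases before to 50 after the start) were given for 6 of the 9 genes, the others being H2-Ab1, Cd74 and Ciita. They were searched on both strands for ATTGG, the NF-Y core, and for GNAAC, part of the X box, where N is any base. Letters and spacing were chosen with these windows in view. A GNAAC with an ATTGG starting 28 to 36 bases later was found in the windows of 5 of the 6 genes and in 1.55% of all 32851 windows, while ATTGG alone was in 37.4% and GNAAC alone in 84.8%. Both windows of H2-DMa lack the spaced letters, and they lie outside the mm9 gene as annotated. The stretches below, matched exactly to mm9, are shown because these members share the layout, with GNAAC first and ATTGG second in capitals, 5′ to 3′ on the gene's strand.
H2-Aa: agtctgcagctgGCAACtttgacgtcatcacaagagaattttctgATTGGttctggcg
H2-Eb1: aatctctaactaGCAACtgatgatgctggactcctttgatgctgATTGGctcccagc
H2-DMb1: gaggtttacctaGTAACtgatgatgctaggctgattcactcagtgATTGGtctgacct
H2-Oa: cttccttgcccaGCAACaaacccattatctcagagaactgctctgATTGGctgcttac
H2-Ob: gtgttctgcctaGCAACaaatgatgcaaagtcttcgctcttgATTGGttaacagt
They lie at chr17:34424804-34424861 on the minus strand for H2-Aa and on the plus strand at chr17:34442709-34442765 for H2-Eb1, chr17:34290030-34290087 for H2-DMb1, chr17:34229236-34229293 for H2-Oa and chr17:34375751-34375805 for H2-Ob. From the start of GNAAC to that of ATTGG there are 33 bases in H2-Aa, H2-DMb1 and H2-Oa, 32 in H2-Eb1 and 30 in H2-Ob, and ATTGG starts 43 to 61 bases before the RefSeq start. A match to these letters is a description of the window and was not tied to any value here.

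The chains of the class II molecules were the most abundant genes of the set after Cd74. H2-Aa (chromosome 17, 34406276 to 34424772 on mm9, minus strand) encodes the I-A alpha chain and was at 565, 398 and 356 FPKM in control mice 0, 1 and 2 and at 144, 127 and 315 FPKM in mice 0, 1 and 2 labelled JunBΔep. H2-Ab1 (34400154 to 34406363, plus strand), the I-A beta chain, was at 493, 433 and 302 FPKM across the controls and at 113, 121 and 288 FPKM in mice labelled JunBΔep. The groups did not overlap in either gene, but mouse 2 labelled JunBΔep lay just under control mouse 2 while mice 0 and 1 were far below. H2-Eb1 (34442828 to 34453144), the beta chain of I-E, repeated the pattern at 299, 244 and 185 FPKM across the controls and 68.8, 72.1 and 177 FPKM in mice labelled JunBΔep. The group means of H2-Aa were 439.5 ± 111 and 195 ± 104 FPKM (SD, n = 3 each), and those of H2-Eb1 were 242.5 ± 56.9 and 106 ± 61.4 FPKM. The log2 fold changes were -1.26 (SE 0.40, adjusted p = 0.431 from limma) for H2-Aa, -1.34 (SE 0.42, adjusted p = 0.418) for H2-Ab1 and -1.31 (SE 0.41, adjusted p = 0.432) for H2-Eb1. With each mouse left out in turn, H2-Aa ranged from -1.67 to -1.01, H2-Ab1 from -1.77 to -1.10 and H2-Eb1 from -1.75 to -1.07, with adjusted p from limma of 0.0551 to 0.957 over these genes. All 3 were furthest from 0 without mouse 2 labelled JunBΔep. The annotations of H2-Ab1 and H2-Aa share 88 bases on opposite strands, and the sources used here do not say whether the FPKM values used strand. The alpha chain gene of I-E is in the table as the pseudogene H2-Ea-ps and is listed at 0 in all 6 mice. H2-Eb2, a relative of H2-Eb1, was at 0.0424 to 0.109 FPKM, under the limit of 0.1 FPKM for the mean of a tested gene.

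Cd74, the invariant chain, was the highest of the 9 in every mouse and had the largest difference of the set. It was at 1209, 893 and 753 FPKM in control mice and at 242, 241 and 599 FPKM in mice 0, 1 and 2 labelled JunBΔep. The groups did not overlap, and mice 0 and 1 labelled JunBΔep were nearly equal. The group means were 952 ± 234 FPKM (SD, n = 3) and 361 ± 206 FPKM (SD, n = 3), with a log2 fold change of -1.51 (SE 0.43, adjusted p = 0.330 from limma). The gene lies apart from the others, on chromosome 18 from 60963502 to 60972300.

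Among the peptide-loading genes, those of H2-DM, the exchange factor, overlapped between the groups. H2-DMa (chromosome 17, 34272127 to 34276046) was at 29.1, 26.0 and 18.0 FPKM across the controls and at 7.28, 9.49 and 20.3 FPKM in mice labelled JunBΔep, and H2-DMb1 (34290017 to 34297168) was at 29.1, 33.9 and 18.9 FPKM and at 8.69, 14.4 and 25.4 FPKM. In both genes mouse 2 labelled JunBΔep exceeded control mouse 2 and stayed under the other controls. The log2 fold changes were -1.05 for H2-DMa (SE 0.40, adjusted p = 0.607 from limma) and -0.82 for H2-DMb1 (SE 0.42, adjusted p = 0.722). With 1 mouse left out H2-DMa ranged from -1.47 to -0.76 and H2-DMb1 from -1.21 to -0.46, nearest to 0 without mouse 0 labelled JunBΔep in both. H2-DMb2, a near copy of H2-DMb1, was at 1.56 to 3.84 FPKM across the controls and 1.28 to 2.52 FPKM in mice labelled JunBΔep (log2 fold change -0.43, adjusted p = 0.722 from limma). Reads were allowed up to 20 placements, so the split between such copies is uncertain.

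H2-O, the brake on H2-DM, is known mainly from B cells and some dendritic cells, and its genes were near 1 FPKM. H2-Oa (chromosome 17, 34229285 to 34232179) was at 1.76, 1.56 and 1.11 FPKM across the controls and at 0.554, 0.461 and 0.865 FPKM in mice labelled JunBΔep, with no overlap. H2-Ob (34375848 to 34390850) was at 1.69, 1.15 and 1.05 FPKM across the controls and at 0.402, 1.07 and 0.805 FPKM in mice labelled JunBΔep. Here mouse 1 labelled JunBΔep was just above control mouse 2, so the groups overlapped. The log2 fold changes were -0.81 for H2-Oa (SE 0.24, adjusted p = 0.371 from limma) and -0.53 for H2-Ob (SE 0.28, adjusted p = 0.722). With 1 mouse left out H2-Ob ranged from -0.71 to -0.31, nearest to 0 without mouse 0 labelled JunBΔep. At this level the pseudocount of 0.5 shrinks differences, and with 0.1 in its place H2-Oa was at -1.13 and H2-Ob at -0.75. Mouse 1 labelled JunBΔep also had the highest Ms4a1 and Pax5, defining markers of B cells. Both were low, with Ms4a1 at 0.0348 to 0.294 FPKM and Pax5 at 0 to 0.234 FPKM over the 6 mice, and their part in the H2-Ob value was not tested.

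Ciita, the coactivator that sets class II transcription, overlapped between the groups. It lies on chromosome 16 (10480237 to 10527657) and was at 2.64, 0.952 and 1.41 FPKM in control mice 0, 1 and 2 and at 1.38, 0.507 and 1.14 FPKM in mice 0, 1 and 2 labelled JunBΔep. Control mouse 1, which had high chain levels, was below mice 0 and 2 labelled JunBΔep, and mouse 0 labelled JunBΔep, which had low chain levels, was close to control mouse 2. The log2 fold change was -0.50, with a 95% interval from -1.44 to 0.45 (limma, adjusted p = 0.722). With 1 mouse left out the value ranged from -0.75 without control mouse 1 to -0.19 without control mouse 0, and it was -0.23 without mouse 1 labelled JunBΔep. The DNA-binding factors that recruit Ciita were near level. Of 7 such genes tested (Rfx5, Rfxap and Rfxank of the RFX complex, Nfya, Nfyb and Nfyc of NF-Y, and Creb1), 0 were called, the median log2 fold change was 0.11, and Rfx5 and Rfxap were at -0.02 each.

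Interferon gamma is the classical inducer of Ciita. Of 11 tested genes of its pathway, 0 were called, 6 were higher and 5 lower, and the median log2 fold change was 0.00. Ifng itself was at 0.0798 to 0.0953 FPKM across the controls and 0.0501 to 0.111 FPKM in mice labelled JunBΔep, under the limit for testing. Cxcl9, a chemokine induced by interferon gamma, was at 1.47, 0.896 and 0.9754 FPKM across the controls and 2.69, 1.67 and 3.81 FPKM in mice labelled JunBΔep. It was the only gene of the list whose groups did not overlap (log2 fold change 0.96, adjusted p = 0.474 from limma).

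**Figure D2:**
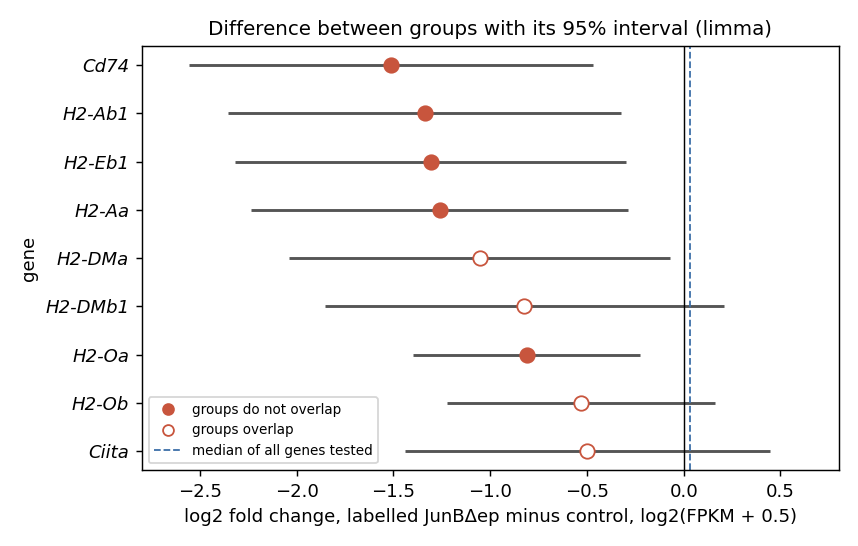
Log2 fold change of each class II gene (points) with its 95% interval from limma (lines), for 3 libraries labelled JunBΔep against 3 controls. All 9 points lie below the dashed median of all genes tested (0.03), and the intervals of H2-DMb1, H2-Ob and Ciita include 0.

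Levels formed 3 tiers on the per-length FPKM scale. In control means the order was Cd74, H2-Aa, H2-Ab1, H2-Eb1, then H2-DMb1 and H2-DMa, then Ciita, H2-Oa and H2-Ob. In this order 4 neighbouring pairs had overlapping ranges over the control mice, namely H2-Aa with H2-Ab1, H2-DMb1 with H2-DMa, Ciita with H2-Oa, and H2-Oa with H2-Ob, and each of these pairs kept its order in 5 of 6 mice. The other 4 pairs kept their order in 6 of 6 mice. Summed over the 9 genes, the level was 2631, 2030 and 1636 FPKM in control mice 0, 1 and 2 and 587, 588 and 1427 FPKM in mice 0, 1 and 2 labelled JunBΔep. Mouse 2 labelled JunBΔep thus lay between the other mice of its label and the lowest control.

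The sample names form 2 number series, whose meaning the labels do not give. The first holds control mice 0 and 1 and mouse 0 labelled JunBΔep, and the second holds control mouse 2 and mice 1 and 2 labelled JunBΔep. Within the first series the log2 difference was -2.10 for Cd74, -1.71 for H2-Aa, -2.02 for H2-Ab1 and -1.96 for H2-Eb1, and within the second it was -0.98, -0.83, -0.69 and -0.71. H2-DMb1 differed by -1.80 in the first and by 0.02 in the second, so its lower level was not seen in the second. The other genes were lower within each series, with H2-Ob at -1.07 and -0.11 and Ciita at -0.18 and -0.58. Without the libraries numbered 0 of both groups, a choice made after the data were seen, the median log2 fold change of the 9 genes was -0.67, and it was -0.77 without mouse 0 labelled JunBΔep alone.

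Ratios within a library do not depend on scaling between libraries. The ratio of Cd74 to the summed chain genes (H2-Aa, H2-Ab1 and H2-Eb1) was 0.891, 0.831 and 0.894 in control mice and 0.741, 0.754 and 0.767 in mice 0, 1 and 2 labelled JunBΔep. The groups did not overlap, and the spread within each was small, with a log2 difference of -0.21 (exact two-sided permutation p = 0.1, the smallest that 3 against 3 allows, and 0.25 adjusted over 5 ratios). The chains relative to B2m, the light chain of MHC class I, were at 0.873, 0.565 and 0.937 across the controls and 0.403, 0.392 and 0.4799 in mice labelled JunBΔep. This was a log2 difference of -0.87 with the same exact permutation p of 0.1. H2-Aa to H2-Ab1 ranged from 0.919 to 1.18 across the controls and from 1.05 to 1.27 in mice labelled JunBΔep (exact permutation p = 0.7). The H2-O genes relative to the H2-DM genes ranged from 0.0452 to 0.0592 and from 0.0366 to 0.0640 (exact permutation p = 1). Chains relative to Ciita ranged from 515 to 1129 across the controls and from 236 to 687 in mice labelled JunBΔep (exact permutation p = 0.6). The log2 difference of this last ratio was -0.58, and it was -0.09 without mouse 0 labelled JunBΔep and -0.24 without control mouse 1.

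**Figure D3:**
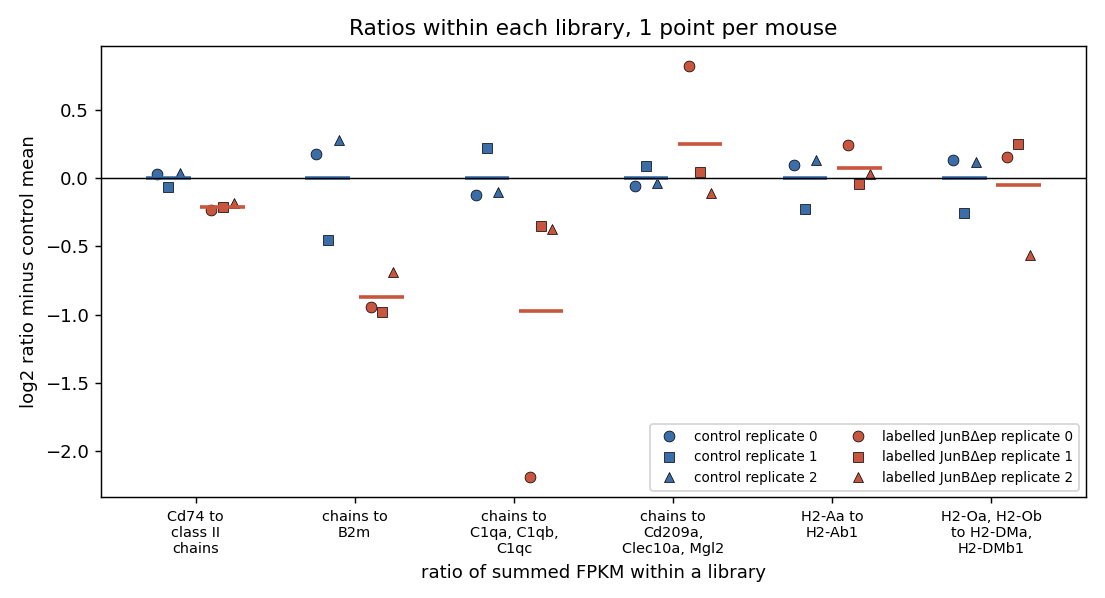
Log2 ratios of summed FPKM within each library, set against the control mean, with 1 point per mouse and bars at the group means (n = 3 each). Cd74 relative to the chains, the chains relative to B2m and the chains relative to the C1q genes lie lower in all 3 libraries labelled JunBΔep, while the other 3 ratios plotted overlap.

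Class II genes were next set beside the markers of the cells that carry them. In whole skin, fewer cells of a type and less RNA per cell cannot be told apart. Of 8 tested markers of dermal dendritic cells, 7 were lower and 1 higher, 0 were called, and the median log2 fold change was -0.605. Beside this, 4 of 4 dermis markers (Col1a1, Col1a2, Col3a1 and Dcn) were also lower in the mean, with 0 called and a median log2 fold change of -0.70. They summed to 2189, 662 and 1400 FPKM in control mice 0, 1 and 2 and to 1422, 577 and 656 FPKM in mice 0, 1 and 2 labelled JunBΔep, with overlap, and their part in the class II and dendritic cell values was not tested. The summed level of the dendritic cell markers was 107 to 166 FPKM across the controls and 53.7 to 110 FPKM in mice labelled JunBΔep. Cd209a, a lectin of monocyte-related dendritic cells, was at 26.1, 15.1 and 17.8 FPKM across the controls and 2.86, 4.12 and 12.2 FPKM in mice 0, 1 and 2 labelled JunBΔep. Mgl2, a galactose lectin of dermal dendritic cells and macrophages, was at 50.1, 34.9 and 29.7 FPKM across the controls and 2.75, 9.22 and 26.6 FPKM in mice labelled JunBΔep. Neither gene overlapped between the groups, and both showed mouse 2 labelled JunBΔep nearest to the controls, as the chains did (log2 fold changes -1.76 and -1.99, adjusted p = 0.375 and 0.584 from limma). Flt3, the growth factor receptor of dendritic cells, did not overlap either (log2 fold change -0.65, adjusted p = 0.521 from limma). The rest of the list, Clec10a, Irf4, Zbtb46, Itgax and Sirpa, overlapped, with log2 fold changes of -1.10, -0.56, -0.20, -0.02 and 0.08. Irf4 and Zbtb46 were highest of all mice in mouse 2 labelled JunBΔep, at 4.16 and 1.52 FPKM. Itgax and Sirpa were highest in mouse 0 labelled JunBΔep, at 3.07 and 42.5 FPKM.

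Macrophage markers were mixed in mouse 0 labelled JunBΔep. Of 10 tested, 8 were lower and 2 higher, 0 were called, and the summed level was 271 to 454 FPKM across the controls and 452, 128 and 296 FPKM in mice 0, 1 and 2 labelled JunBΔep. C1qa, a complement gene of tissue macrophages, was at 112, 82.5 and 67.2 FPKM across the controls and at 117, 34.9 and 79.9 FPKM in mice labelled JunBΔep. Cd163 and Mertk, receptors of tissue macrophages, were below every control in mouse 0 labelled JunBΔep, at 6.70 and 1.47 FPKM, while Cd68 was above every control there, at 48.7 FPKM. Langerin (Cd207), the defining gene of Langerhans cells, was at 12.2, 14.1 and 7.75 FPKM across the controls and at 3.65, 6.65 and 12.1 FPKM in mice labelled JunBΔep, with overlap (log2 fold change -0.68, adjusted p = 0.722 from limma). Of the 4 Langerhans cell markers, the other three were higher, among them Epcam, which keratinocytes of the hair follicle also express. In Epcam all mice labelled JunBΔep were above all controls, at 90.4 to 122 FPKM against 49.4 to 69.9 FPKM (log2 fold change 0.87, adjusted p = 0.192 from limma). B cell markers summed to 2.44 to 4.84 FPKM across the controls and 2.79 to 6.43 FPKM in mice labelled JunBΔep over 7 genes.

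The chains were also divided by such markers, in ratios chosen after the values were seen and therefore given without a test. Per unit of Cd209a, Clec10a and Mgl2 together, the chains stood at 10.8, 11.96 and 10.9 across the controls and at 19.8, 11.6 and 10.4 in mice 0, 1 and 2 labelled JunBΔep. Mice 1 and 2 were thus within or just beside the control range, and mouse 0 was above it. Per unit of C1qa, C1qb and C1qc together, the chains stood at 4.04, 5.13 and 4.10 across the controls and at 0.964, 3.44 and 3.40 in mice labelled JunBΔep, below the controls in all 3. Per unit of Itgax, an integrin of dendritic cells and other myeloid cells, they stood at 690, 612 and 482 in control mice and at 106.5, 390 and 381 in mice labelled JunBΔep, again lower in all 3, and per unit of Cd207 at 76.2 to 111 and 48.1 to 89.4, with overlap. Per unit of Ptprc, the pan-leukocyte gene, they stood at 165 to 213 across the controls and at 20.5, 150 and 168 in mice labelled JunBΔep. Ptprc was highest in mouse 0 labelled JunBΔep, at 15.9 FPKM against 4.79 to 8.21 FPKM across the controls.

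**Figure D4:**
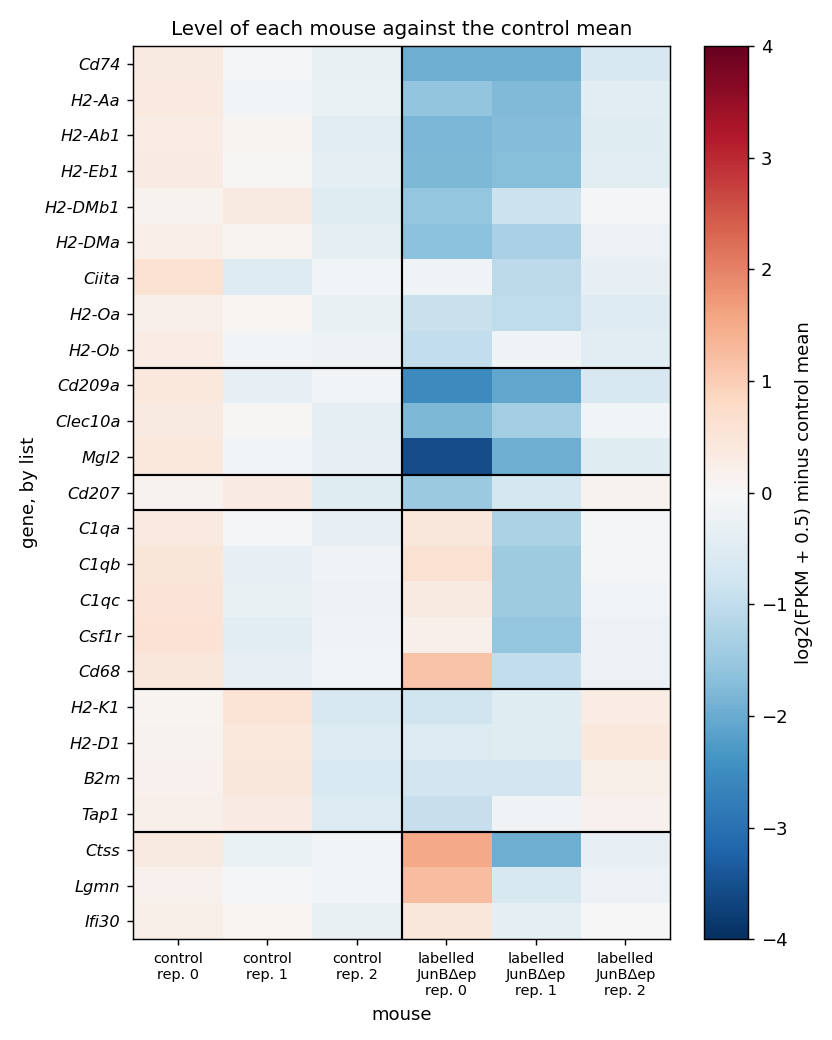
Log2(FPKM + 0.5) of each mouse minus the control mean (colour) for the 9 class II genes and, below the lines, examples of dermal dendritic cell, Langerhans cell, macrophage, MHC class I and antigen processing genes. In mouse 0 labelled JunBΔep the class II chains and dendritic cell lectins are blue while C1qa, Cd68 and Ctss are red, and in mouse 1 all of these are blue.

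Genes for the supply of peptides came next. Of 10 tested genes of class II antigen processing and turnover, 5 were higher and 5 lower, 0 were called, and the median log2 fold change was -0.07. Ctss, the protease that trims the invariant chain, was at 62.1, 39.6 and 44.9 FPKM across the controls and at 137, 12.02 and 37.9 FPKM in mice 0, 1 and 2 labelled JunBΔep. Mouse 0 was thus the highest of all mice for Ctss and among the lowest for Cd74. Cst3, an inhibitor of such proteases, was at 912, 1299 and 632 FPKM across the controls and at 519, 447 and 812 FPKM in mice labelled JunBΔep (log2 fold change -0.66, adjusted p = 0.722 from limma). Ifi30, a reductase that opens disulfide bonds of antigens, was at 62.3 to 89.2 FPKM across the controls and 106, 58.8 and 77.7 FPKM in mice labelled JunBΔep. The MHC class I list had 11 of 11 tested genes lower, 0 called and a median log2 fold change of -0.325, with overlapping groups in all 11. The list's median against the control mean was -0.805, -0.48 and 0.28 in mice 0, 1 and 2 labelled JunBΔep, so mouse 2 was the highest here too. B2m was at 1554, 1900 and 899 FPKM across the controls and at 811, 817 and 1625 FPKM in mice labelled JunBΔep, and H2-K1, a class I heavy chain, at 776, 1048 and 459 FPKM and at 412, 518 and 876 FPKM.

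The mean profile of H2-Aa, H2-Ab1, H2-Eb1 and Cd74 over the 6 mice, each centred on the log2(FPKM + 0.5) scale, was used to order all genes tested by root-mean-square difference from it. Those 4 genes make up the profile, so their own distances are not given. Over all genes tested the median difference was 0.886. Of the other members H2-DMa was at rank 16 of 17021 (0.195), H2-DMb1 at rank 226, H2-Oa at rank 281, H2-Ob at rank 1935 and Ciita at rank 2588 (0.657). The 10 nearest genes outside the set were Phospho1 (a phosphatase), Gypc (a membrane glycoprotein of red cells), Tnxb (the matrix protein tenascin X), Entpd2 (an enzyme that splits extracellular ATP), Sox6 (a transcription factor), Cyp27a1 (a sterol hydroxylase), Rasa4 (a Ras regulator), Abi3 (an actin regulator), Limch1 (an actomyosin regulator) and Clec10a (a galactose lectin of dendritic cells and macrophages). Their differences from the profile were 0.149 to 0.188, and none was called by limma. Clec10a was at 49.6, 39.8 and 29.5 FPKM across the controls and 10.9, 14.4 and 36.1 FPKM in mice labelled JunBΔep. With 6 mice, a short distance describes these libraries only.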

How the data were processed

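Poly(A) RNA of whole skin from 6 mice was sequenced from strand-marking libraries. The authors checked reads with FastQC, aligned them to mm9 with TopHat2 2.0.10, Bowtie 1.0.0 and SAMtools 0.1.19, allowing 2 mismatches and 20 placements, and deposited FPKM values per gene and mouse. Cufflinks is listed in the submitters' processing notes without a role, and whether FPKM were scaled further is not stated. Differential expression had been tested with DESeq2 by the authors, and the reads behind it were not used here.

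Values were transformed to log2(FPKM + 0.5) and fitted with limma 3.58.1 (R 4.3.3), with genotype as the single term and a mean-variance trend, for 17021 genes whose mean reached 0.1 FPKM. P-values were two-sided and Benjamini-Hochberg adjusted over all of them, and called below 0.05. The log2(FPKM + 0.5) scale of the fold changes understates those of low genes. Ratios were tested by exact permutation with scipy 1.17.1. The fit was tested on simulated data, in which it missed changes of 1 on the log2 scale. Positions come from GENCODE vM1 (mm9) and promoter windows from RefSeq (GRCm38.p6), matched to mm9.

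The genes and lists were chosen with earlier results of these data known. All 9 members, Junb, genes of the hand-written lists and the 10 nearest profiles are named. Alternatives were a pseudocount of 0.1 or 1, filtering at 1 FPKM or not at all, 3 rescalings, limma without the trend or robust, blocks on the replicate number or the number series of the sample names, and each mouse left out. Every column of the table was used. Some items are not reported here.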

Additional observations from a re-analysis of the deposited data

How the results depend on the processing

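Each of the 9 class II genes stayed lower in the skin labelled JunBΔep in 162 of 162 values over the alternatives, and none passed an adjusted p of 0.05 from limma in any (lowest 0.0551). Their median log2 fold change lay between -1.02 and -1.13 in all fits that keep 6 mice, and between -0.77 and -1.47 with 1 mouse left out. The filters, limma's variance settings and the replicate block leave each member's fold change as in the main fit, so those signs could not turn. The number of genes called over the whole table was less stable. It was 235, 166 to 247 over the other scalings, filters, pseudocounts and variance settings, 0 with a replicate block, 0 with a block on the number series of the sample names, 0 without the libraries numbered 0 of both groups, and 0 to 254 with 1 mouse left out. It was 0 without any 1 control mouse or without mouse 1 labelled JunBΔep. Deviations of same-numbered mice from their group means correlated at 0.12, -0.23 and -0.43 for numbers 0, 1 and 2, and only number 0 correlated best with its own number, so the numbers were not taken as pairs. The log2 difference in the ratio of H2-O to H2-DM genes was -0.05, turned to 0.27 with a pseudocount of 0.5 and lay between -0.20 and 0.20 with 1 mouse left out. That of H2-Aa to H2-Ab1 was 0.08 and lay between -0.036 and 0.14. The cause of these turns was not tested. Read depth is unknown and limits genes near or below 1 FPKM, by an amount that was not tested.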

Other observations

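Genes that mark dendritic cells on the move, and costimulators and related ligands that accompany class II presentation, were also measured. Of 4 tested markers of migratory dendritic cells, all 4 had a higher mean in the skin labelled JunBΔep and 0 were called by limma over all genes. All 235 genes called in that fit were lower, so the lack of a call does not set these markers apart. Ccr7, the receptor that guides dendritic cells to lymph nodes, was at 0.373, 0.244 and 0.514 FPKM in control mice 0, 1 and 2 and at 1.38, 1.04 and 0.653 FPKM in mice 0, 1 and 2 labelled JunBΔep, without overlap (log2 fold change 0.78, adjusted p = 0.446 from limma). Ccl22, a chemokine of mature dendritic cells, was close to level (log2 fold change 0.04, adjusted p = 0.966 from limma). Fscn1, an actin bundler of mature dendritic cells that other skin cells also express, was at 6.75 to 10.1 FPKM and 12.5 to 31.3 FPKM, also without overlap (log2 fold change 1.08, adjusted p = 0.548 from limma).

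Of 7 genes listed as costimulators or related ligands, 2 were higher and 5 lower, with a median log2 fold change of -0.04 and 0 called. Cd274 and Pdcd1lg2 of this list are inhibitory ligands rather than costimulators. The 5 lower ones were Cd86, Cd40, Icosl, Pdcd1lg2 and Cd83, with log2 fold changes of -0.27 to -0.01 and overlapping groups. Of the higher ones, Cd80 was at 0.298 to 0.636 FPKM across the controls and at 4.64, 0.213 and 0.435 FPKM in mice 0, 1 and 2 labelled JunBΔep, and Cd274 was at 2.96 to 4.78 FPKM and at 14.4, 1.76 and 3.76 FPKM, so both were highest in mouse 0 labelled JunBΔep. Cd86, Cd40, Icosl and Pdcd1lg2 were highest in that library too, at 4.199, 2.13, 9.94 and 0.425 FPKM against at most 3.72, 1.91, 9.73 and 0.2965 FPKM across the controls. Of 3 tested markers of plasmacytoid dendritic cells, 2 were lower and 1 higher, with 0 called. Siglech was at 1.40, 0.824 and 0.988 FPKM across the controls and at 0.1399, 0.151 and 0.528 FPKM in mice labelled JunBΔep, without overlap (log2 fold change -1.04, adjusted p = 0.257 from limma). Bst2 was at -0.45 and Ly6d, which keratinocytes also express, at 0.67 on the log2 scale, both with overlapping groups. On the T cell side, Cd4 and Lag3, which bind class II molecules, overlapped between the groups, at 0.732 to 1.06 and 1.72 to 2.96 FPKM across the controls and 0.215 to 2.08 and 1.21 to 3.42 FPKM in mice labelled JunBΔep.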
